A study of Homo sapiens with 17 samples.

Results

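The human microRNA hairpins hsa-mir-10a, hsa-mir-10b, hsa-mir-196a-1, hsa-mir-196a-2 and hsa-mir-196b, written below without the species prefix, lie inside the 4 HOX gene clusters and were chosen by name. All 5 were listed both in the table of parental and dCTT cells, which holds 294 hairpins, and in the table of rescued cells, which holds 1282. The cells were HCT116, an established human colon carcinoma line. Small RNA was sequenced from 17 libraries. There was 1 library of parental HCT116 cells with intact DGCR8 and 1 of dCTT cells, in which CRISPR-Cas9 removed the C-terminal CTT domain of DGCR8, labelled a functional knockout. The other 15 libraries all came from dCTT cells, so every rescue group, mock included, shared that deletion. With 3 libraries in each, 1 group was a mock rescue, 1 received the wild-type protein (WT), 1 the C352A mutant and 1 the P351A mutant, and the last received P351A together with ALA, an agent given here as the labels abbreviate it. The columns taken as mock are headed KO, and that match is inferred from the names. The labels do not say whether the dCTT line is 1 clone or whether replicates are separate cultures. The spread behind each p-value may therefore be technical only.

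MicroRNA hairpins are cut out of long primary transcripts by Microprocessor, in which DGCR8 holds the RNA and Drosha cleaves it. DGCR8 binds heme, and C352A and P351A change neighbouring residues of its heme-binding motif. The series title concerns hemin and how Microprocessor reads a hairpin's apical loop. The HOX genes encode transcription factors that set position along the body axis, and the microRNAs embedded among them are known to target HOX transcripts, miR-196 acting on HOXB8 in particular. The mir-10 hairpins sit beside HOX4 genes and the mir-196 hairpins beside HOX9 to HOX10 genes, each in the direction of transcription of its cluster.

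All positions are on GRCh38. mir-10a lies on chromosome 17 from 48579838 to 48579947 on the minus strand, in the HOXB cluster, where it is intronic to 6 HOXB3 transcripts and exonic to 1 HOXB4 transcript of GENCODE 29. mir-10b lies on chromosome 2 from 176150303 to 176150412 on the plus strand, in an intron of HOXD3 in the HOXD cluster. mir-196a-1 is the second HOXB hairpin, on chromosome 17 from 48632490 to 48632559 on the minus strand, in an intron of 1 HOXB7 transcript. mir-196a-2 lies on chromosome 12 from 53991738 to 53991847 on the plus strand, in an intron of HOXC6. mir-196b lies on chromosome 7 from 27169480 to 27169563 on the minus strand, in the HOXA cluster, exonic to 1 HOXA9 transcript and intronic to 2 more. The deposited values are summed per hairpin and do not separate these transcripts or the arms of a hairpin.

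The mature sequences below, from RefSeq on GRCh38.p14, are shown because they set which hairpins can share reads and targets. Each is written 5′ to 3′ with the seed, bases 2 to 8, in capitals.

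miR-10a-5p: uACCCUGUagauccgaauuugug
miR-10a-3p: cAAAUUCGuaucuaggggaaua
miR-10b-3p: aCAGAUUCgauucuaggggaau
miR-196a-5p: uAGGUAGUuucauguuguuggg
miR-196b-5p: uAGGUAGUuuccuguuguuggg
miR-196a-1-3p: cAACAACAuuaaaccacccga
miR-196a-3p: cGGCAACAagaaacugccugag
miR-196b-3p: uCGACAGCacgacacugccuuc

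mir-196a-1 and mir-196a-2 carry the same 5p arm, miR-196a-5p, and differ in their 3p arms. miR-196b-5p shares the seed AGGUAGU with miR-196a-5p and differs from it by the substitution A12C, counted from 1 at the 5′ end of miR-196a-5p. miR-10a and miR-10b are likewise close relatives by sequence. How a read was assigned to a hairpin, and with how many mismatches, is not given in the sources used here. Counts of these near-identical hairpins are therefore uncertain where a read fits more than 1 of them.

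The hairpins below, again from RefSeq on GRCh38.p14, are shown because the study asks about the apical loop. Capitals mark the bases between the annotated 5p and 3p arms, a window that holds the apical loop.

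mir-10a: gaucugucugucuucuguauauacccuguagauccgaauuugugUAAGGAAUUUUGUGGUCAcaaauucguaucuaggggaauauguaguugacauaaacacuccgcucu
mir-196a-1: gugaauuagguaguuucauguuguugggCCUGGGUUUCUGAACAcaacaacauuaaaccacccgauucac
mir-196a-2: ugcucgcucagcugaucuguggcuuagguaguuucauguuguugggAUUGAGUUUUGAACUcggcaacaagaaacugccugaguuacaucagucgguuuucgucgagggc
mir-196b: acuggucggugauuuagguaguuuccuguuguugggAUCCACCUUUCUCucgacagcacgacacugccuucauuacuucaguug

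The windows were 18 bases long in mir-10a, 16 in mir-196a-1, 15 in mir-196a-2 and 13 in mir-196b, against a median of 16 over the 739 RefSeq hairpins with both arms annotated. They were searched on the RNA strand for UGU, an apical-loop motif known to bind DGCR8. UGU was present in the window of mir-10a and not in the other 3, and 249 of the 739 hairpins (33.7%) held it. A match of these letters is a description of the window, not a measured binding site.

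Depth, the sum of reads over all hairpins, was 5122793 in the parental and 168798 in the dCTT library, and ran from 146023 to 587214 in the mock, 660126 to 1470755 in the WT, 199133 to 1023184 in the C352A, 1666688 to 2175294 in the P351A and 1191542 to 1941805 in the P351A + ALA libraries. The deposited values are scaled reads, meaning read counts multiplied by 1 factor per library, and whole reads could be recovered from them. The 5 members had at least 69 reads in every rescue library, the lowest being mir-196b in mock library b. Of 10 hairpins typical of colon epithelium, all were listed, and their summed scaled reads were highest with WT (167365 to 365283) and next with P351A + ALA (144356 to 226951), against 71097 to 95134 with P351A, 29776 to 59461 with mock and 22353 to 30363 with C352A. Most of that sum was mir-21, at 20844 to 357939 over the rescue libraries, so it moved with the groups. Those of the 9 listed of 12 hairpins of other cell types were highest with WT (1652 to 2788), against 905 to 1135 with mock, 872 to 965 with C352A, 1023 to 1465 with P351A and 894 to 1371 with P351A + ALA. Among these, mir-126 had 231 to 277 scaled reads with P351A against 718 to 751 with mock, and mir-9-1 had 664 to 1023 with P351A against 133 to 277 with mock. mir-122 was at 0 in all mock, C352A and P351A + ALA libraries, mir-133a-1 in all mock and WT libraries, and mir-223 in all P351A and P351A + ALA libraries. The part of these markers in the results below was not tested. The rescue libraries also fell into 2 sets by mir-373, an embryonic-type microRNA. It had 1038 to 5176 scaled reads in the mock, WT and C352A libraries and 0 in all P351A and P351A + ALA libraries. This split coincides with the groups, so the set and the group cannot be told apart wherever P351A or P351A + ALA is compared with mock, WT or C352A. WT replicate 1 stood above the other WT libraries for many hairpins, for example mir-125a with 1870.5 scaled reads against 191 and 277. P351A + ALA replicate 3 stood apart from the other libraries of its group for some hairpins, for example mir-125a with 105 scaled reads against 661 and 389.

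In the parental and dCTT pair, all 5 HOX-cluster hairpins had far fewer scaled reads after the CTT domain was deleted. mir-10a had 92486 scaled reads in the parental and 1529 in the dCTT library, a ratio of 60.5 (95% exact binomial interval 57.5 to 63.7). mir-10b had 11582 against 478, a ratio of 24.2 (22.1 to 26.6). mir-196b had 3451 against 68, a ratio of 50.8 (40.0 to 65.5). The mir-10a ratio thus exceeded that of its paralogue mir-10b by more than the counting error of these 2 libraries. The mir-196a-1 ratio was 48.4 (37.5 to 63.7) and that of mir-196a-2 was 49.0 (37.8 to 64.6). With 1 library per group these intervals cover counting error only, reads without molecular identifiers are not independent molecules, and there is no replicate check. In bulk RNA, fewer cells that make a hairpin and less of it per cell cannot be told apart.

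These falls were of the size seen over the whole table. That table holds only hairpins with at least 50.7 scaled reads in the higher library. The median hairpin was 46.5-fold lower in dCTT cells, and 257 of 294 (87.4%) were at least 4-fold lower, as were all 5 members under the authors' scaling. By rank among the 294 ratios, from the smallest fall up, mir-10a stood at percentile 72.8, mir-196b at 58.8, mir-196a-1 at 52.0, mir-196a-2 at 53.7 and mir-10b at 22.4. After each library was centred on its median hairpin, 0 of the 5 were 4-fold lower. The log2 ratios then were 1.51 for mir-10a, 1.24 for mir-196b, 1.18 for mir-196a-2, 1.17 for mir-196a-1 and 0.19 for mir-10b. The size of the drop therefore depended on the scaling. Centring on the median hairpin takes out any drop shared by most hairpins, so it cannot test such a drop. Under the authors' scaling mir-320a, a hairpin made without DGCR8, had 30548 scaled reads in the parental and 30425 in the dCTT library. How the libraries were scaled is not given, and mir-320a may have been part of it, so these values cannot test the scaling. As a share of all hairpin reads, mir-10a took 2.81% of the parental library (Wilson 95% interval 2.80 to 2.83) and 0.906% of the dCTT library (0.862 to 0.952).

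In the rescued cells mir-10a was the most read of the 5 in every library. Its scaled reads were 5385, 4015 and 4346 in mock libraries a, b and c, and 92125, 46442 and 59417 in WT replicates 1, 2 and 3. They were 5143, 3635 and 3025 with C352A, 5768, 5961 and 5994 with P351A, and 32699, 33345 and 29023 with P351A + ALA. The WT libraries lay above all others and the P351A + ALA libraries above all but WT, with no overlap, while the mock and C352A libraries overlapped and the P351A libraries lay just above both.

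mir-10b, at a lower level, was likewise highest with WT and next with P351A + ALA. It had 1322, 1452 and 1777 scaled reads in the mock libraries and 9348, 6159.5 and 7449 in the WT libraries. The values were 2782, 1771 and 1766 with C352A, 1542, 1675 and 1639.8 with P351A, and 4295, 3990.0 and 4472 with P351A + ALA. The WT libraries and the P351A + ALA libraries were each apart from all others, and the mock libraries overlapped both mutant groups.

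Relative to its mean, mir-196b had the widest spread among WT libraries of the 5. It had 336, 222 and 201 scaled reads in the mock libraries and 6995, 2314 and 2636 in WT replicates 1, 2 and 3. It had 478, 226 and 238 with C352A, 326, 414 and 380.2 with P351A, and 703, 772 and 609 with P351A + ALA. All WT libraries lay above all others and all P351A + ALA libraries above the mock, C352A and P351A libraries, and those 3 groups overlapped each other.

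mir-196a-2 and its copy mir-196a-1 had the narrowest range of group means. mir-196a-2 had 502, 293 and 306 scaled reads in the mock libraries and 1299, 584 and 619 in the WT libraries. It had 296, 182 and 149 with C352A, 298, 363 and 364 with P351A, and 343, 334 and 349 with P351A + ALA. Only the WT libraries were apart from every other group. mir-196a-1, which shares the 5p arm, differed from mir-196a-2 by at most 2.83% in any of the 17 libraries, and by at most 27 reads. These maxima were in different libraries. The pair is therefore 1 measurement rather than 2. Counts out of 5 members hold both copies.

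**Figure D1:**
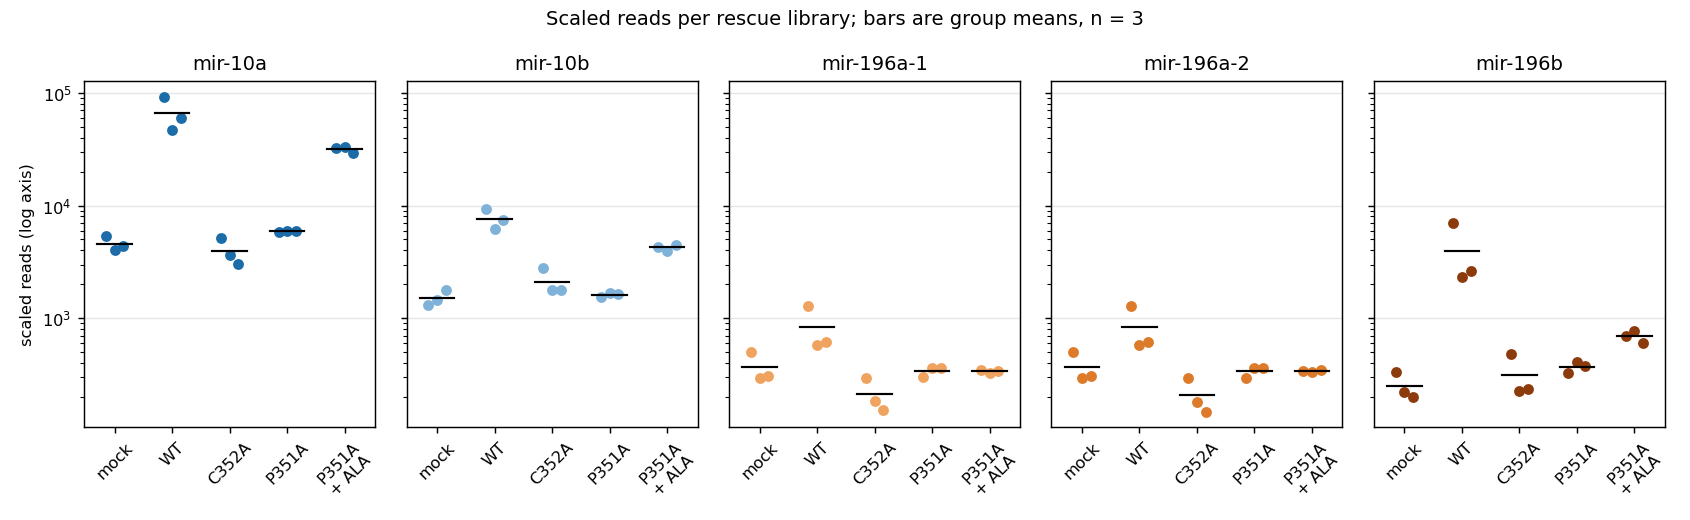
Scaled reads (log axis) of each hairpin in the 15 rescue libraries, grouped by rescue; points are libraries and bars are means of 3. mir-10a reaches 46442 to 92125 in WT and 29023 to 33345 in P351A + ALA, against 3025 to 5994 in the other groups, while mir-196a-1 and mir-196a-2 stay between 149 and 502 outside WT.

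Differences between rescue groups were fitted with limma on log2(scaled reads + 1) over all 15 libraries, for the 336 hairpins with a mean of at least 10 scaled reads, which all 5 members passed. A hairpin is said to have risen or fallen where its Benjamini-Hochberg adjusted p over the 336 was under 0.05. Fold changes are on that log2 scale, a percentile is a hairpin's rank from the lowest to the highest of the 336 changes, and the comparisons share groups, so they are not independent.

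The first question was how far wild-type DGCR8 restored the hairpins over mock. All 5 members rose, beside 55.7% of all tested hairpins that rose and 7.44% that fell. mir-10a rose from a mean of 4582 ± 715 to 65995 ± 23541 scaled reads (SD, n = 3 each), a log2 change of 3.80 (SE 0.24, limma adjusted p 2.44e-09). mir-196b rose from 253 ± 72.8 to 3981 ± 2615 (SD, n = 3), a log2 change of 3.82 (SE 0.40, limma adjusted p 8.57e-07). Both stood near the top of the 336 fold changes, at percentiles 97.0 and 97.3. mir-10b rose by 2.32 (SE 0.24, limma adjusted p 8.57e-07), at percentile 87.2. mir-196a-1 and mir-196a-2 rose by 1.12 and 1.13 (SE 0.35 each, limma adjusted p 0.0107 and 0.0106), at percentiles 48.5 and 48.8, but their sign turned with equal library totals (-0.32 each) and with edgeR's TMM scaling (-0.13 each). The median of all hairpins was 1.13 under the authors' scaling, 0.42 after median centring and -0.27 with equal totals. mir-10a, mir-10b and mir-196b rose under each of these scalings. All 3 WT libraries lay above all mock libraries for 5 of 5 members, beside 66.7% of all tested hairpins whose groups were apart. Without WT replicate 1, 3 of the 5 passed, since mir-196a-1 and mir-196a-2 lost the call (limma adjusted p 0.0555 and 0.0550).

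The C352A protein was compared with wild-type DGCR8 to ask what loss of the heme-site cysteine does. All 5 members fell, beside 65.5% of all tested hairpins that fell and 0% that rose. mir-10a fell by 4.04 on the log2 scale (SE 0.24, limma adjusted p 8.83e-10) and mir-196b fell by 3.56 (SE 0.40, limma adjusted p 7.21e-07). They stood at percentiles 1.2 and 4.5 of the 336. mir-10b, mir-196a-1 and mir-196a-2 fell by 1.87, 1.92 and 1.95 (limma adjusted p 3.28e-06, 0.000105 and 9.73e-05), close to the median change of all hairpins, -1.76, and with TMM scaling their changes were 0.047, 0.036 and 0.011. mir-10a and mir-196b fell under each scaling tried. The C352A libraries lay below the WT libraries for 5 of 5 members, beside 66.7% of all tested hairpins whose groups were apart.

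Against mock, 0 of 5 members passed the limma test with C352A. An unadjusted p under 0.05 was found for 2 of 5, the mir-196a copies, which are 1 measurement. Over all hairpins 0.595% rose and 14.3% fell. DESeq2 and edgeR with the authors' scaling also called 0, and edgeR with TMM called 1, mir-10b, which was higher. The log2 changes were -0.24 for mir-10a (95% interval -0.74 to 0.25), 0.45 for mir-10b (-0.062 to 0.96), 0.26 for mir-196b (-0.58 to 1.10), -0.80 for mir-196a-1 (-1.55 to -0.058) and -0.82 for mir-196a-2 (-1.57 to -0.077). The sign of mir-10a turned after median centring (0.48). Beside a median of -0.66 over all hairpins, mir-10b and mir-196b stood high, at percentiles 96.1 and 94.6. Groups overlapped for each of the 5, beside 41.4% of all tested hairpins whose groups were apart.

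With P351A all 5 members fell against wild-type DGCR8, beside 51.2% of all tested hairpins that fell and 3.27% that rose. mir-10a fell by 3.42 (SE 0.24, limma adjusted p 6.62e-09), mir-196b fell by 3.23 (SE 0.40, limma adjusted p 3.55e-06) and mir-10b fell by 2.22 (SE 0.24, limma adjusted p 8.53e-07). These stood at percentiles 3.3, 4.2 and 17.3 and fell under each scaling tried. mir-196a-1 and mir-196a-2 fell by 1.18 and 1.19 (limma adjusted p 0.00955 and 0.00937), beside a median of -0.95 over all hairpins, and with TMM scaling their changes were 0.32 and 0.31. All P351A libraries lay below all WT libraries for 5 of 5 members, beside 64.9% of all tested hairpins whose groups were apart.

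Against mock, 0 of 5 members passed the limma test with P351A, and 0 had an unadjusted p under 0.05. Over all hairpins 22.6% rose and 25.9% fell. edgeR with the authors' scaling and DESeq2 called 0, and edgeR with TMM called 2, mir-10a and mir-196b, both higher. The log2 changes were 0.38 for mir-10a (95% interval -0.12 to 0.87), 0.10 for mir-10b (-0.41 to 0.62), 0.59 for mir-196b (-0.25 to 1.43) -0.061 for mir-196a-1 (-0.81 to 0.68) and -0.063 for mir-196a-2 (-0.81 to 0.68). The signs turned with the scaling. With equal totals mir-10a was at -0.32, mir-10b at -0.59 and mir-196b at -0.10, and after median centring each mir-196a copy was at 0.23. Only mir-10a had all P351A libraries above all mock libraries, 1 of 5 members, beside 65.8% of all tested hairpins whose groups were apart.

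ALA was added to P351A cells, and the question is whether it changed the hairpins against P351A alone. mir-10a rose by 2.42 (SE 0.24, limma adjusted p 9.67e-07) from 5908 ± 122 to 31689 ± 2331 scaled reads (SD, n = 3 each). mir-10b rose by 1.39 (SE 0.24, limma adjusted p 0.000168) from 1619 ± 68.7 to 4252 ± 244 (SD, n = 3). These were 2 of 5 members, beside 44.6% of all tested hairpins that rose and 2.98% that fell. Groups were apart for 3 of 5 members, beside 70.2% of all tested hairpins. mir-196b was the third of these, higher in all ALA libraries than in any P351A library, but missed the threshold, at 0.89 (SE 0.40, limma adjusted p 0.0697), and passed with these groups fitted alone (limma adjusted p 0.00564). mir-196a-1 and mir-196a-2 were at -0.0067 and 0.0074 (95% intervals -0.75 to 0.74 and -0.74 to 0.76). The median of all hairpins was 0.81, so the mir-196a copies stood low, at percentiles 20.5 and 21.7, and mir-10a high, at percentile 92.6. After median centring mir-10a was at 1.28 and mir-10b at 0.25. mir-196a-2 passed as lower then, at -1.13, as did mir-196a-1. Libraries were also centred on a list of hairpins made without DGCR8 (the DGCR8-independent list), which includes mir-320a. mir-10a was then at 0.56 and mir-10b at -0.47, and neither passed. The median of all hairpins was then -1.05. Under the authors' scaling, mir-320a had a mean of 75177 scaled reads with P351A and 91619 with P351A + ALA. Whether this list is a stable baseline was not tested.

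Against mock, 3 of 5 members rose in P351A + ALA cells, beside 49.4% of all tested hairpins that rose and 8.93% that fell. mir-10a rose by 2.80 (limma adjusted p 3.97e-08), mir-10b by 1.50 (limma adjusted p 7.16e-05) and mir-196b by 1.48 (limma adjusted p 0.00472). The same 3 had all P351A + ALA libraries above all mock libraries, beside 56.8% of all tested hairpins whose groups were apart. The mir-196a-1 and mir-196a-2 changes were -0.068 and -0.056 (95% intervals -0.81 to 0.68 and -0.80 to 0.69). mir-10a passed under each scaling tried, while with equal totals mir-10b and mir-196b were at 0.018 and 0.0094 and the mir-196a copies passed as lower, at -1.54 and -1.53.

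Against wild-type DGCR8, all 5 members fell in P351A + ALA cells, beside 20.2% of all tested hairpins that fell and 13.7% that rose. mir-196b fell most, by 2.34 (SE 0.40, limma adjusted p 0.000445), at percentile 1.8 of the 336. mir-10a fell by 1.00 (limma adjusted p 0.00465), mir-10b fell by 0.83 (limma adjusted p 0.0164), mir-196a-1 fell by 1.19 (limma adjusted p 0.0173) and mir-196a-2 fell by 1.18 (limma adjusted p 0.0181). All 5 kept this direction under each scaling tried. The number that passed was 3 without WT replicate 1 or without P351A + ALA replicate 1, 2 without P351A + ALA replicate 2, and 2 when these groups were fitted alone. With TMM it was 4, as mir-10b did not pass (-0.50, edgeR adjusted p 0.0931). All libraries of the groups were apart for 5 of 5 members, beside 41.4% of all tested hairpins.

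P351A was also set against C352A, the other heme-site substitution. mir-10a rose by 0.62 (SE 0.24, limma adjusted p 0.0379), the only member of 5 to pass, beside 36.9% of all tested hairpins that rose and 14% that fell. The changes of mir-196a-1 (0.74), mir-196a-2 (0.76), mir-196b (0.33) and mir-10b (-0.35) did not pass, and the median of all hairpins was 0.56. Groups were apart for 4 of 5 members, 3 higher and mir-10b lower, beside 66.4% of all tested hairpins. The call for mir-10a was lost on leaving out any 1 of the P351A libraries, C352A replicate 2 or C352A replicate 3, and its change was -0.27 with equal totals.

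**Figure D2:**
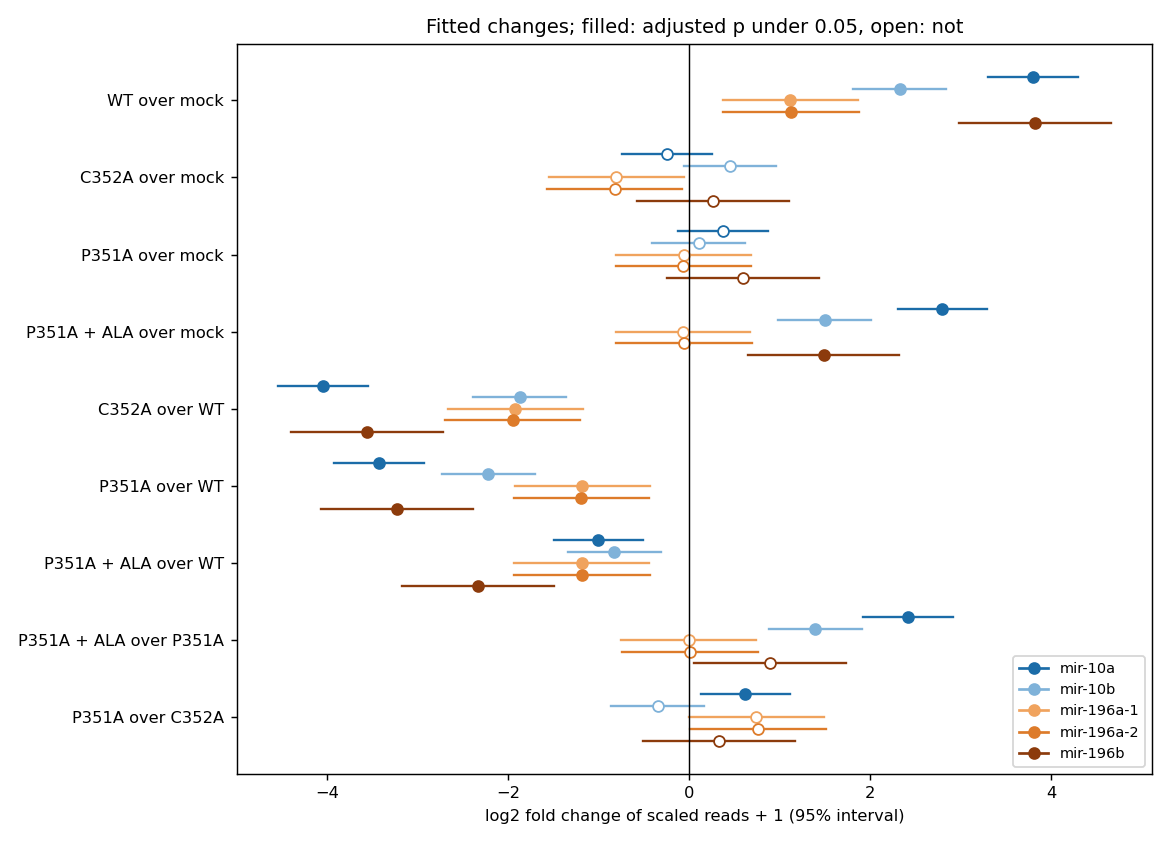
Fitted log2 fold changes of scaled reads + 1 with 95% intervals for each hairpin in the 9 comparisons of rescue groups (n = 3 each); filled points passed an adjusted p of 0.05, open points did not. Under the authors' scaling mir-10a and mir-196b are farthest from 0 in the WT comparisons with mock, C352A and P351A, and the mir-196a copies lie at 0 in P351A + ALA over P351A, where median centring puts mir-196a-2 at -1.13.

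**Figure D3:**
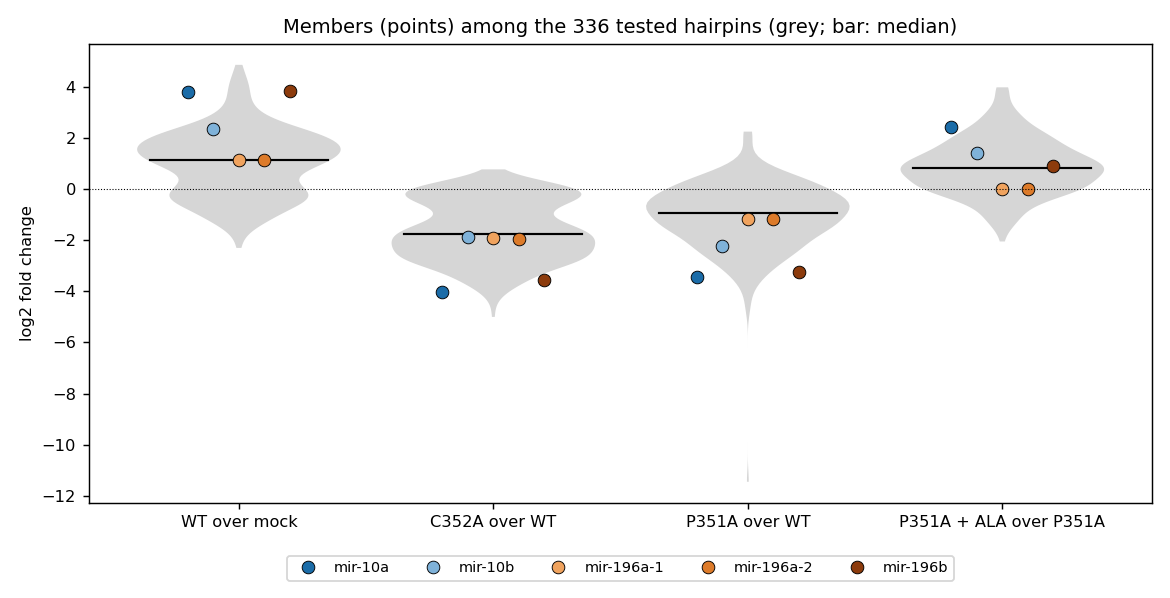
Log2 fold changes of the 5 hairpins (points) among all 336 tested hairpins (grey outline, bar at the median) in 4 comparisons under the authors' scaling. In WT over mock, mir-10a (3.80) and mir-196b (3.82) lie in the upper tail and the mir-196a copies (1.12 and 1.13, below 0 with equal totals or TMM) at the median of 1.13.

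The paralogues thus differed from each other within a library, and a ratio of hairpins in the same library does not depend on any library scaling. The mir-10a over mir-10b ratio was 4.07, 2.76 and 2.44 in mock libraries a, b and c, and 9.85, 7.54 and 7.98 in WT replicates 1, 2 and 3. It was 1.85, 2.05 and 1.71 with C352A, 3.74, 3.56 and 3.65 with P351A, and 7.61, 8.36 and 6.49 with P351A + ALA. WT and P351A + ALA overlapped each other and lay above all remaining libraries, and C352A lay below all. The mean log2 ratio ran from 0.90 ± 0.13 with C352A to 3.07 ± 0.20 with WT (SD, n = 3), a range of 2.17. An exact permutation test of F over the 5 groups gave p = 2.50e-05 (35 of 1401400 partitions, adjusted over 2 ratios 2.50e-05). Reads assigned to the wrong one of these paralogues would shift this ratio, and the size of that shift was not tested.

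The mir-196b over mir-196a-2 ratio was 0.670, 0.759 and 0.657 in the mock libraries and 5.38, 3.96 and 4.25 in the WT libraries. It was 1.61, 1.24 and 1.59 with C352A, 1.10, 1.14 and 1.04 with P351A, and 2.04, 2.31 and 1.74 with P351A + ALA. All 5 groups were apart, in the order mock, P351A, C352A, P351A + ALA and WT. The mean log2 ratio ran from -0.53 ± 0.11 with mock to 2.17 ± 0.23 with WT (SD, n = 3), a range of 2.69. The exact permutation test gave p = 7.14e-07, the smallest that the design allows, and 1.43e-06 adjusted over 2 ratios. Since miR-196a-5p and miR-196b-5p differ by 1 base, reads assigned to the wrong hairpin would shift this ratio, and the size of that shift was not tested.

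Within the 9 libraries that held mir-373, the ranges were 2.17 and 2.69, each with an exact permutation p of 0.00357, the smallest possible over 280 partitions. Within the 6 libraries without mir-373, P351A + ALA exceeded P351A by 1.03 for mir-10a over mir-10b and by 0.89 for mir-196b over mir-196a-2. The exact permutation p was 0.1 for each, the smallest that 3 against 3 libraries can give.

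Between the parental and dCTT libraries, a shift beyond counting error was seen in the first of these ratios, and none was detectable at this depth in the second. mir-10a over mir-10b was 7.99 in parental cells (95% exact binomial interval 7.86 to 8.11) and 3.20 in dCTT cells (2.88 to 3.55), near the WT and mock means of 8.46 and 3.09. mir-196b over mir-196a-2 was 1.21 in parental (1.17 to 1.26) and 1.17 in dCTT cells (0.814 to 1.69), below the WT mean of 4.53 and above the mock mean of 0.695. The tables were scaled separately, which leaves a ratio within a library untouched, and no test was made across the tables.

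**Figure D4:**
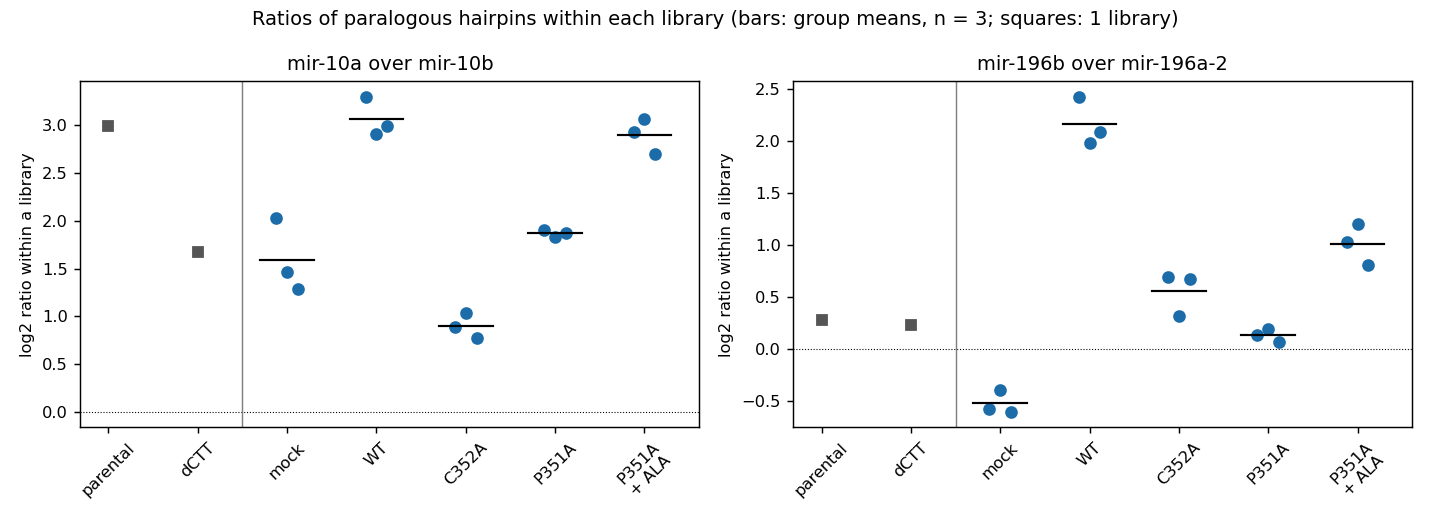
Log2 ratios of mir-10a over mir-10b (left) and mir-196b over mir-196a-2 (right) within each library; circles are rescue libraries, bars their means (n = 3), squares the single parental and dCTT libraries. WT is highest in both, at means of 3.07 and 2.17, while the parental library lies within the WT range on the left only.

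Over the 15 rescue libraries the members followed each other to different degrees on the log2 scale. Pearson r was 0.95 for mir-10a with mir-10b, 0.92 for mir-10a with mir-196b and 0.67 for mir-10b with each mir-196a copy. The hairpins most like mir-10a were mir-671 (0.98), mir-139 (0.97), mir-584 (0.96), let-7i (0.96) and mir-193b (0.95). Those most like mir-196b were mir-671, mir-191 and mir-27b, each at 0.94. These values describe 15 libraries that share group, depth and scaling, and carry no test.

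The HOX clusters hold 3 further annotated hairpins. mir-615, which lies in the HOXC cluster on chromosome 12 from 54033950 to 54034045, was low, with 3.22 to 10 scaled reads in mock and 13.8 to 85.4 in WT libraries. It rose in WT over mock by 2.06 (SE 0.72, limma adjusted p 0.0187) and fell in C352A against WT by 3.53 (limma adjusted p 0.000275), on 0, 1 and 15 reads in the C352A libraries. In the parental and dCTT pair it had 561 against 6 reads, a scaled ratio of 60.0 (95% exact binomial interval 27.4 to 164). After median centring the changes in WT over mock and C352A against WT were 1.35, which did not pass, and -2.09, which did. With TMM the change in C352A against WT was -1.14, which did not pass. The rise in WT over mock also did not pass with equal totals (0.73) or TMM (1.01), nor without WT replicate 1 or without mock library b. mir-7704, in the HOXD cluster, was also low. It had 30, 77.3 and 32.6 scaled reads in mock and 7.33, 7.70 and 9.27 in P351A libraries, a fall of 2.26 (SE 0.56, limma adjusted p 0.00325). This fall did not pass on the DGCR8-independent list (-1.36), where the median of all hairpins was 0.87, against -0.027 under the authors' scaling. mir-7704 was at -0.53 in WT over mock (limma adjusted p 0.432), and passed as lower there with equal totals (-1.91) and TMM (-1.65). mir-3185, in the HOXB cluster, had 0 or 1 read per rescue library and was not tested.

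The mir-10 hairpins belong by sequence to a larger group with mir-99a, mir-99b, mir-100, mir-125a, mir-125b-1 and mir-125b-2, which lie outside the HOX clusters. Of these 6, 4 rose in WT over mock (median log2 change 1.54) and 6 fell in C352A against WT (median -2.11), beside the 55.7% and 65.5% of all tested hairpins given above. In WT over mock 2 of the 6 rose without WT replicate 1 (median 1.00) and 2 without mock library b (median 1.40). With equal totals the counts were 1 higher and 1 lower in WT over mock (median 0.090), beside 16.4% of all tested hairpins higher and 37.5% lower. The count in C352A against WT was then 1 lower (median -0.47), beside 29.5% of all tested hairpins.

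In P351A against WT, 1 of the relatives fell (median -0.41), beside 51.2% of all tested hairpins, where mir-10a and mir-10b changed by -3.42 and -2.22. The median of the relatives was above 0 without WT replicate 1 (0.13) and under the other 4 scalings, from 0.33 to 1.02, while mir-10a and mir-10b fell under each scaling. In P351A + ALA over P351A, 0 of 6 passed in limma (1 with an unadjusted p under 0.05), beside 44.6% of all tested hairpins that rose and 2.98% that fell. DESeq2 also called 0 and edgeR with the authors' scaling 1, which was lower. The median of the relatives was -0.37, where mir-10a and mir-10b rose by 2.42 and 1.39. P351A + ALA replicate 3 was the lowest of its group for all 6, and without it the median was -0.068, with 0 of 6 passing. Under the other 4 scalings 4 to 6 of the relatives passed as lower, beside 18.2% to 49.4% of all tested hairpins, with medians from -2.24 to -1.15. The difference between the mir-10 hairpins and these relatives was not tested.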

How the data were processed

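Small RNA libraries of 17 HCT116 samples were analysed from the processed tables. Per the labels' protocols, TRIzol-extracted RNA was size-selected on a gel before TruSeq library preparation. Tools named in the submitters' processing notes are cutadapt 1.14 and Bowtie2, with build hg38. How reads were assigned and libraries scaled is not given in the sources used here. As deposited by the authors, 2 reference columns (dCTT and 1 mock library) hold whole counts and the other columns hold signal, that is, read counts multiplied by 1 factor per library. Whole reads were recovered from the smallest step of each library (tolerance 0.001 of a read). The columns used as mock are headed KO with a number, which the labels do not tie to a single mock sample. They were taken as mock by inference, since the mock cells are the knockout cells given no DGCR8. Here they are called a, b and c.

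Fold changes were fitted with limma 3.58.1 (R 4.3.3) with a variance trend on log2(value + 1) for hairpins with a mean of at least 10. edgeR 4.0.16 and DESeq2 1.42.0 on recovered reads were alternatives, as were other pseudocounts, filters, scalings and left-out libraries. The fit was checked on simulated counts with a fixed dispersion and no shifts shared by hairpins of a library. That check does not measure how reliable the calls are here. Replicates differed beyond sampling noise (chi-square over degrees of freedom 3.98 to 198). Same-numbered WT and C352A libraries deviated together (r 0.185 to 0.425 in 3 of 3 pairs), so their numbers were tried as pairs from the data, not the labels. Same-numbered WT and P351A libraries did not (r -0.345 to -0.135). Over all pairs of groups other than mock, the median r was -0.0198 for same numbers and -0.0131 for other numbers. Hairpins named were the 5 members, the other HOX-cluster hairpins, the mir-10 relatives and those with the highest r to mir-10a (5) and mir-196b (3). Members and lists were chosen with earlier results of these data known.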

Additional observations from a re-analysis of the deposited data

How the results depend on the processing

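The number of members that passed depended mainly on library scaling. In WT over mock it was 5, and 3 after median centring, with equal totals, with edgeR's TMM, and with only these groups fitted. In C352A against mock it was 0, and 1 after median centring, with equal totals or TMM. In P351A against mock it was 0, then 2 after median centring or with TMM, 3 (higher) on the DGCR8-independent list and 3 (lower) with equal totals. In P351A + ALA against mock it was 3 (all higher), 1 on the DGCR8-independent list, 4 after median centring (2 higher, 2 lower), and 3 with equal totals or TMM (1 higher, 2 lower). In C352A against WT it was 5, and 2 after median centring, with equal totals or TMM. In P351A against WT it was 5, and 3 under each of the 4 other scalings. In P351A + ALA against WT it was 5, 4 with TMM, and 2 with only these groups fitted. In P351A + ALA against P351A it was 2 (higher), 3 (higher) with only these groups fitted, 4 with equal totals (2 lower), 3 after median centring or with TMM (2 lower), and 2 on the DGCR8-independent list (both lower). In P351A against C352A it was 1, then 0 with no filter, no variance trend or DESeq2, 3 on the DGCR8-independent list or with only these groups, and 1 (mir-10b, lower) after median centring, with equal totals or TMM. The count at least 4-fold lower in dCTT cells was 5, and 0 after median centring or with equal totals. Neither of these scalings can test a drop shared by most hairpins. With P351A and P351A + ALA alone the ratio ranges were 1.03 and 0.89 (exact permutation p 0.1). The cause of these changes was not tested.

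Signs also turned. On the DGCR8-independent list the log2 changes were 0.12 for mir-10a in C352A against mock, 0.83 for both mir-196a copies in P351A against mock, -0.47 for mir-10b, -1.86 for mir-196a-2 and -0.97 for mir-196b in P351A + ALA against P351A, and 0.18 for mir-10b in P351A against C352A. With TMM they were -0.13 for both mir-196a copies in WT over mock, 0.44 for mir-10a in C352A against mock, 0.19 for both mir-196a copies in P351A against mock, 0.047, 0.036 and 0.011 for mir-10b, mir-196a-1 and mir-196a-2 in C352A against WT, 0.32 and 0.31 for mir-196a-1 and mir-196a-2 in P351A against WT, -1.17 for mir-196a-2 and -0.29 for mir-196b in P351A + ALA against P351A, and -0.16 for mir-196b in P351A against C352A. With equal totals they were -0.32 for both mir-196a copies in WT over mock, -0.32, -0.59 and -0.10 for mir-10a, mir-10b and mir-196b in P351A against mock, -0.77 for mir-196a-2 in P351A + ALA against P351A, and -0.27, -0.15, -0.13 and -0.56 for mir-10a, mir-196a-1, mir-196a-2 and mir-196b in P351A against C352A. After median centring they were 0.48 for mir-10a in C352A against mock, 0.23 for both mir-196a copies in P351A against mock, -1.13 for mir-196a-2 and -0.24 for mir-196b in P351A + ALA against P351A, and -0.10 for mir-196b in P351A against C352A.

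Leaving out 1 library at a time, the counts ran from 3 to 5 (WT over mock), 2 to 5 (P351A + ALA against WT) and 0 to 3 (P351A against C352A), and did not change in the other 6 comparisons. Signs turned only for changes that did not pass under the authors' scaling: mir-196b in C352A against mock (-0.087 to 0.48), mir-196a-1 and mir-196a-2 in P351A against mock (-0.20 to 0.18 for both), in P351A + ALA against mock (-0.21 to 0.18 and -0.20 to 0.19) and in P351A + ALA against P351A (-0.10 to 0.041 and -0.088 to 0.056). The ratio ranges ran from 2.06 to 2.25 and from 2.56 to 2.78. With the replicate number as a block, 5 of 5 members fell in C352A against WT (mir-10a fell by 4.04), and no call changed in the 5 comparisons without mock. No paired analysis was made for the 4 comparisons with mock. The labels do not tie the numbers of the mock columns to single samples. Depth limits the mir-196 hairpins most, with as few as 69 reads in a mock library.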
